A study of Rattus norvegicus with 48 samples.

Results

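miR-340-5p and miR-340-3p are the mature miRNAs cut from the opposite strands of a single hairpin precursor, and both were measured in rat liver. They were 2 of the 143 miRNAs in the deposited table. The arms were chosen because miR-340-5p had stood out among miRNAs lower in animals given AM21, the antisense oligonucleotide to miR-21, while miR-340-3p had not. The levels of both arms under AM21 are therefore given as a description, without a test.

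A miRNA hairpin is trimmed in the nucleus by Drosha and in the cytoplasm by Dicer to a short duplex of its 5′ and 3′ arms. Usually 1 arm is loaded into an Argonaute protein and guides it to target mRNAs through its seed, bases 2 to 8, while the other arm is mostly degraded. Both arms start from the same transcript, and the ratio of their counts within an animal does not depend on how that library was scaled. miR-21, the target of AM21, is a widely expressed miRNA that rises in injured and regenerating liver and is raised in many tumors.

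The sequences of both arms from RefSeq (build GRCr8) are shown with the seed in capitals, since the seed is what sets the targets of each arm and neither seed is that of miR-21-5p.
rno-miR-340-5p: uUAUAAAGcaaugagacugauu
rno-miR-340-3p: uCCGUCUCaguuacuuuauagcc
rno-miR-21-5p: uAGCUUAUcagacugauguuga
miR-340-5p lies at chr10:34894668-34894689 and miR-340-3p at chr10:34894710-34894732, both on the plus strand, within a hairpin of 98 bases. The hairpin lies between the start and end of Rnf130, a gene of the same strand that encodes a RING finger protein. The annotation table used here gives gene bounds only, so whether the hairpin is intronic was not determined. None of the other mature rat miRNAs, of 693 in all, shared the seed of either arm.

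The hairpin is printed with both arms in capitals, to show how the arms face each other across the loop.
miR-340 hairpin: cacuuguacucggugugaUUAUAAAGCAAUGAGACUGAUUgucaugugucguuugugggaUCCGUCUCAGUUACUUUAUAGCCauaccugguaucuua
In the structure that RNAfold predicted, 16 of the 22 bases of miR-340-5p paired with bases of miR-340-3p. The 3′ part of miR-340-5p also has letters in common with miR-21-5p, and the shared stretch is shown in capitals.
rno-miR-340-5p: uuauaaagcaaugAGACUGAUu
rno-miR-21-5p: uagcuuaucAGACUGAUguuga
The run of 8 letters AGACUGAU stands at bases 14 to 21 of miR-340-5p and bases 10 to 17 of miR-21-5p, outside both seeds. It was searched on the mature strand only, and 2 of the 693 mature rat miRNAs, these 2, held it (0.289%). An identical run of any letters of at least that length with miR-21-5p was found in 6 of the 692 other mature miRNAs (0.867%), miR-340-5p among them, and the median longest run was 4. For miR-340-3p the longest run was 4, the same as this median. The others of the 6 were miR-153-5p, miR-361-5p, miR-5132-3p, miR-743b-5p and, with a run of 9, miR-541-5p. The deposited table lists miR-361, miR-743b and miR-21 without an arm, so these names were not matched to an arm and the 5p sequence of miR-21 is shown as its main mature form. A shared run is a description of letters, and the sequence of AM21 was not given in the sources used here.

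The 48 liver samples came from male Sprague-Dawley rats, aged 8 to 14 wk, in 16 groups of 3. Each sample is counted as an animal here, although the sources do not say whether 0 h and 24 h samples came from different rats. The rats were pair-fed a liquid diet for 6 to 8 wk in which 36% of calories came from ethanol (EtOH) or from carbohydrate (CHO). Untreated animals of each diet were collected at 0 h and at 6, 24, and 72 h after removal of 70% of the liver (partial hepatectomy, PHx). Animals given saline or AM21, a locked nucleic acid at 7.5 mg/kg injected 72 h before surgery and again right after PHx, were collected at 0 and 24 h. As the second injection followed PHx, samples of 0 h could have had only the first. At 0 and 24 h each diet thus had an untreated, a saline and an AM21 group, and the untreated and saline animals served as joint controls of AM21. No oligonucleotide of unrelated sequence was among the groups, so an effect of AM21 and an effect of any locked nucleic acid cannot be told apart. The RNA came from whole liver, in which fewer cells of a type and less RNA per cell cannot be told apart. Animals at 0 and 24 h carry the set numbers 1, 2, and 3 in their labels and all animals at 6 and 72 h carry set number 4, a number the labels do not explain, so time and set cannot be told apart when 6 or 72 h is compared with 0 h.

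miRNAs were counted with the NanoString nCounter assay, which reads a coloured probe for each molecule without amplification. Levels are log2 CPM, counts scaled to library size on the log2 scale, and the counts behind them were recovered. The totals ran from 58168 to 267582 with a median of 160078, of which miR-122, the main miRNA of hepatocytes, took 42.1% to 68.8%. miR-21, the target of AM21, had 15 to 32 counts in 12 livers with AM21 and 120 to 9934 in the 24 controls at 0 and 24 h, with no overlap.

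Both arms were among the less abundant miRNAs of the table. miR-340-5p had a median of 58.5 counts over the 48 animals and miR-340-3p a median of 33, against 88 for the median miRNA. 50 of the other miRNAs had a lower median count than miR-340-5p, and 5 had a lower one than miR-340-3p. Probes differ in how well they bind, so the counts of different probes are not a ratio of molecules. Within an animal the log2 difference between the arms (5p minus 3p) was above 0 in 35 of the 36 animals without AM21 and in 2 of the 12 with AM21.

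How far these counts lay above background was judged from 6 miRNAs known from other tissues, because control probes were not used here. They were miR-124 of neurons, miR-206 of skeletal muscle, miR-208b-3p and miR-499 of heart, and miR-741-3p and miR-743b of testis, a list chosen after the names in the table had been seen. Their counts ran from 14 to 102 over all animals. miR-340-5p exceeded the highest of these 6 miRNAs in the same animal in 23 of the 36 animals without AM21 and in 0 of the 12 with AM21. miR-340-3p exceeded it in 0 of 48 animals, and exceeded their median in 6 of 36 animals without AM21 and in 1 of 12 with AM21. miR-21 exceeded it in 36 of 36 and 0 of 12 animals. A level above background was therefore not shown for miR-340-3p in any group, nor for miR-340-5p under AM21, where a fold change may understate the difference. Without AM21 it was shown for miR-340-5p in only part of the animals, which were not counted by time. At 6 h miR-340-5p had 28 to 48 counts, inside the 14 to 102 of these 6 miRNAs. A level above background was thus not shown for it at 6 h either.

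**Figure D1:**
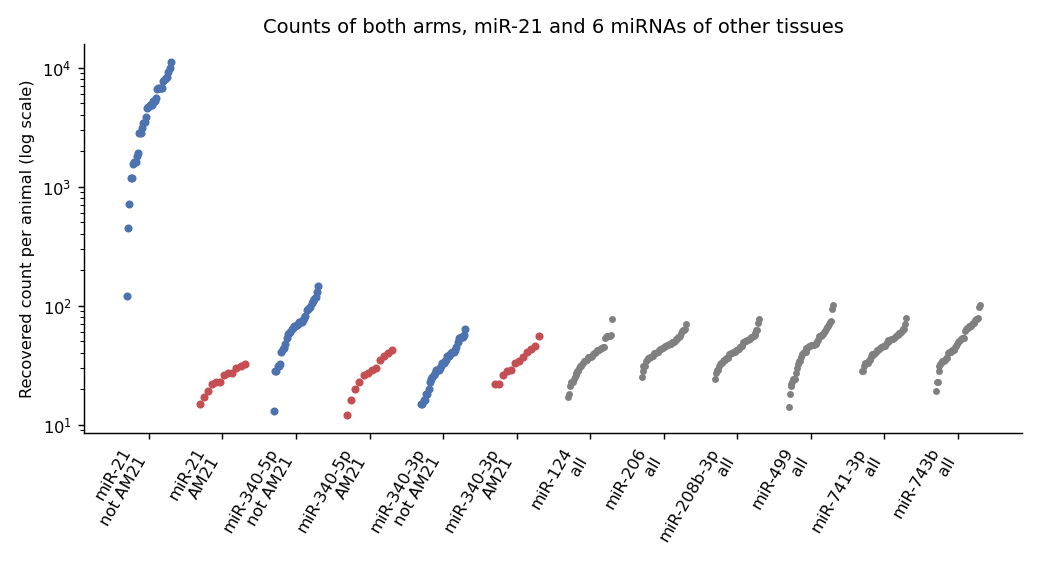
Recovered counts per animal (log scale) of miR-21, miR-340-5p and miR-340-3p in the 36 animals without AM21 (blue) and the 12 with AM21 (red), and of 6 miRNAs of other tissues in all 48 animals (grey), each point an animal and points sorted by count. miR-340-5p reached 145 counts without AM21 and 42 with it, while miR-340-3p stayed between 15 and 64, inside the range of the grey points.

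Under AM21 the level of miR-340-5p was lower by 1.44 on the log2 scale than in controls on average over both diets and both times, a 2.71-fold difference, while miR-340-3p differed by -0.09. miR-340-5p was second from the bottom of the 143 miRNAs ordered by this difference, after miR-21 (-7.15) and before miR-199a-5p (-0.51). It held that second place in each of the 4 combinations of diet and time taken alone. miR-340-3p stood 47th from the lowest. The median over all 143 miRNAs was 0.00 with the deposited scaling, which centres most miRNAs, -0.08 with libraries scaled by total count alone and 0.08 with scaling on the 100 highest probes.

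In CHO-fed animals at 0 h, AM21-treated livers had 30, 35, and 12 counts of miR-340-5p, which are 7.58, 8.37, and 6.04 log2 CPM. The saline animals had 64, 109, and 44 counts, or 8.77, 9.24, and 8.50 log2 CPM. The untreated animals had 94, 13, and 65 counts, or 9.48, 7.73, and 8.78 log2 CPM. The groups overlapped here, because the untreated animal with 13 counts lay below 1 treated animal in log2 CPM. That library had the lowest total of the series, and without it the controls at 0 and 24 h ran from 8.34 to 9.48 log2 CPM.

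In EtOH-fed animals at 0 h, the counts of miR-340-5p were 40, 16, and 38 with AM21, or 7.43, 7.03, and 7.56 log2 CPM. With saline they were 69, 60, and 91, or 8.43, 8.66, and 8.85 log2 CPM. Untreated animals had 98, 28, and 145 counts, or 9.36, 8.34, and 9.48 log2 CPM. Every treated liver lay below every control on the log2 CPM scale, although the untreated animal with 28 counts had fewer counts than 2 of the treated animals.

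At 24 h after PHx the separation was complete in both diets. CHO-fed animals had 7.72, 7.09, and 6.99 log2 CPM of miR-340-5p with AM21, from 26, 23, and 20 counts. Their controls lay between 8.63 and 8.91, from 43 to 78 counts. EtOH-fed animals had 7.92, 7.48, and 7.35 log2 CPM with AM21, from 42, 29, and 27 counts, against 8.73 to 9.20 in the controls. Thus the ranges did not overlap in 3 of the 4 combinations. Of all miRNAs, 1.40% lay wholly lower under AM21 in CHO-fed animals at 0 h, 2.80% in CHO-fed animals at 24 h, 2.10% in EtOH-fed animals at 0 h, and 2.80% in EtOH-fed animals at 24 h.

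The differences in miR-340-5p were of like size in the 4 combinations, at -1.42 and -1.51 in CHO-fed animals at 0 and 24 h and -1.51 and -1.32 in EtOH-fed animals. Within set numbers 1, 2, and 3 the differences were -1.25, -1.15, and -1.92, and the treated animal was lower in 4 of 4 combinations in each set. The lowest value of the series, 6.04 log2 CPM from 12 counts, belonged to set 3. Leaving that animal out brought the difference in CHO-fed animals at 0 h to -0.78.

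The levels of miR-340-3p overlapped between AM21 and control animals in all 4 combinations. As this arm was not shown above background, a fall of it might not have been seen. In CHO-fed animals at 0 h its levels were 7.72, 7.71, and 7.77 log2 CPM with AM21, inside the control range of 7.30 to 8.19. In EtOH-fed animals at 0 h they were 7.89, 7.47, and 7.83, against 7.24 to 7.81 in the controls. In CHO-fed animals at 24 h they were 7.83, 7.76, and 7.74, against 7.71 to 8.17.

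The widest gap for miR-340-3p was in EtOH-fed animals at 24 h, where AM21-treated animals had 7.24, 7.48, and 8.01 log2 CPM and the controls 7.79 to 8.38, with overlap. The differences over the 4 combinations were 0.06, -0.18, 0.22, and -0.46 in the order CHO 0 h, CHO 24 h, EtOH 0 h, and EtOH 24 h. They had no common sign. From 0 to 24 h after PHx the mean of miR-340-3p differed by -0.05 among AM21-treated animals, against 0.41 among the controls, and this contrast was not tested. In injected animals time and the second injection cannot be told apart.

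**Figure D2:**
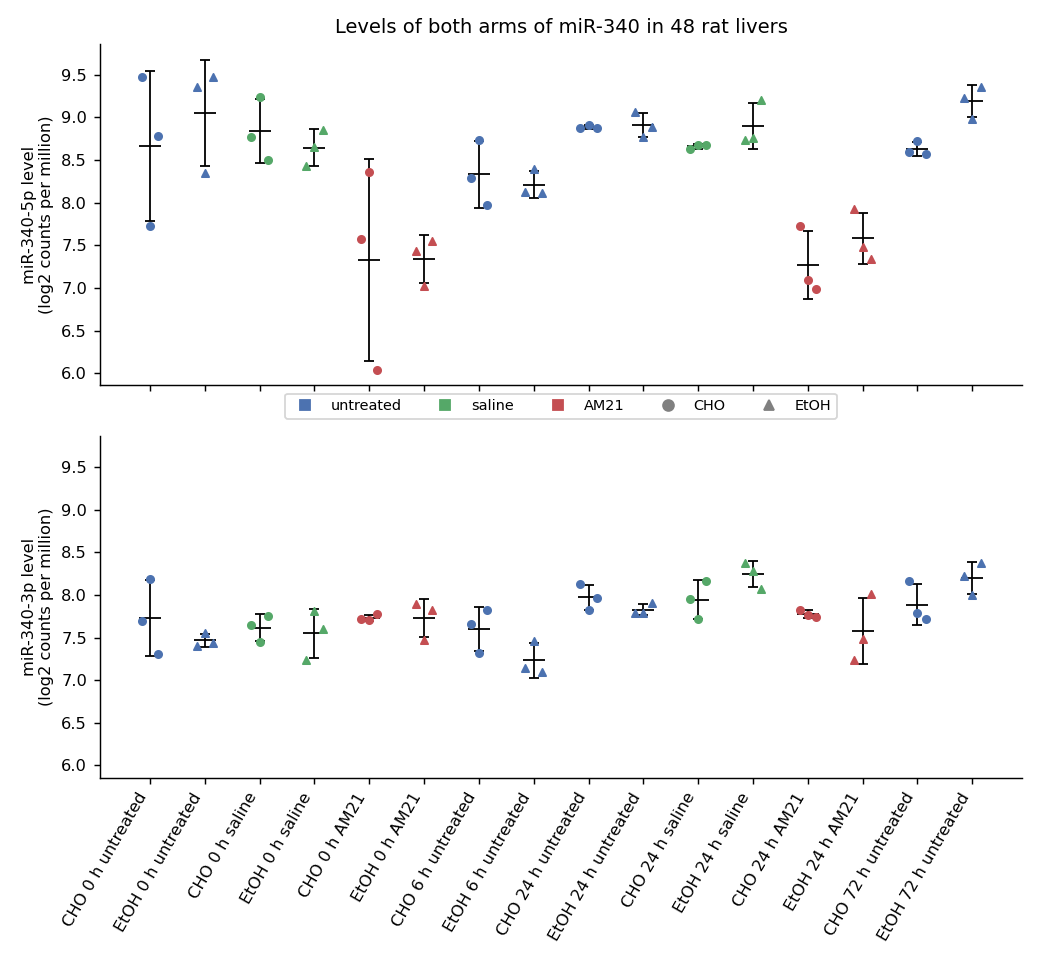
Levels of miR-340-5p (top) and miR-340-3p (bottom) in log2 CPM in each of 48 livers, by group, with bars for mean ± SD of 3 animals. Group means of miR-340-5p lie between 7.27 and 7.58 with AM21 and between 8.21 and 9.19 in all other groups, while those of miR-340-3p lie between 7.23 and 8.24, with the AM21 groups at 7.58 to 7.78.

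Ordered by mean, the 4 AM21 groups were the lowest of the 16 groups for miR-340-5p. The lowest group without AM21, untreated EtOH-fed animals at 6 h, stood at 8.21 ± 0.16 (SD, n = 3), and the highest AM21 group, EtOH-fed animals at 24 h, at 7.58 ± 0.30 (SD, n = 3). The step of 0.63 between them was the only one of the 15 steps between neighbours in which the ranges of the animals did not overlap. The other 14 steps were smaller than the larger SD of the neighbours. The highest mean was 9.19 ± 0.19 (SD, n = 3) in untreated EtOH-fed animals at 72 h.

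For miR-340-3p the order was different. EtOH-fed saline animals at 24 h were highest at 8.24 ± 0.15 (SD, n = 3), and untreated EtOH-fed animals at 6 h lowest at 7.23 ± 0.20 (SD, n = 3). All 15 steps between neighbours had overlapping ranges. The AM21 groups stood 7th, 8th, 9th, and 13th from the top.

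The difference between the arms within each animal, in which library scaling cancels, was also lower under AM21. As miR-340-3p was not shown above background, this quantity cannot show that the arms respond differently. With AM21 the log2 difference of 5p minus 3p ran from -1.73 to 0.68 with a median of -0.36. In the 24 controls it ran from -0.45 to 2.04 with a median of 0.99. The ranges overlapped, and without the control of the lowest total the controls began at 0.36.

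Averaged over the 4 combinations, the arm difference was lower by 1.35 under AM21, with values of -1.48 and -1.33 in CHO-fed animals at 0 and 24 h and -1.74 and -0.86 in EtOH-fed animals. Of the 143 miRNAs, 6 precursors had both arms listed, and the same quantity was computed for the other 5. It was -0.20 for miR-199a, 0.13 for miR-30b, 0.05 for miR-3594, 0.29 for miR-532, and 0.23 for miR-674. No test was made of the difference between miR-340 and these precursors.

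**Figure D3:**
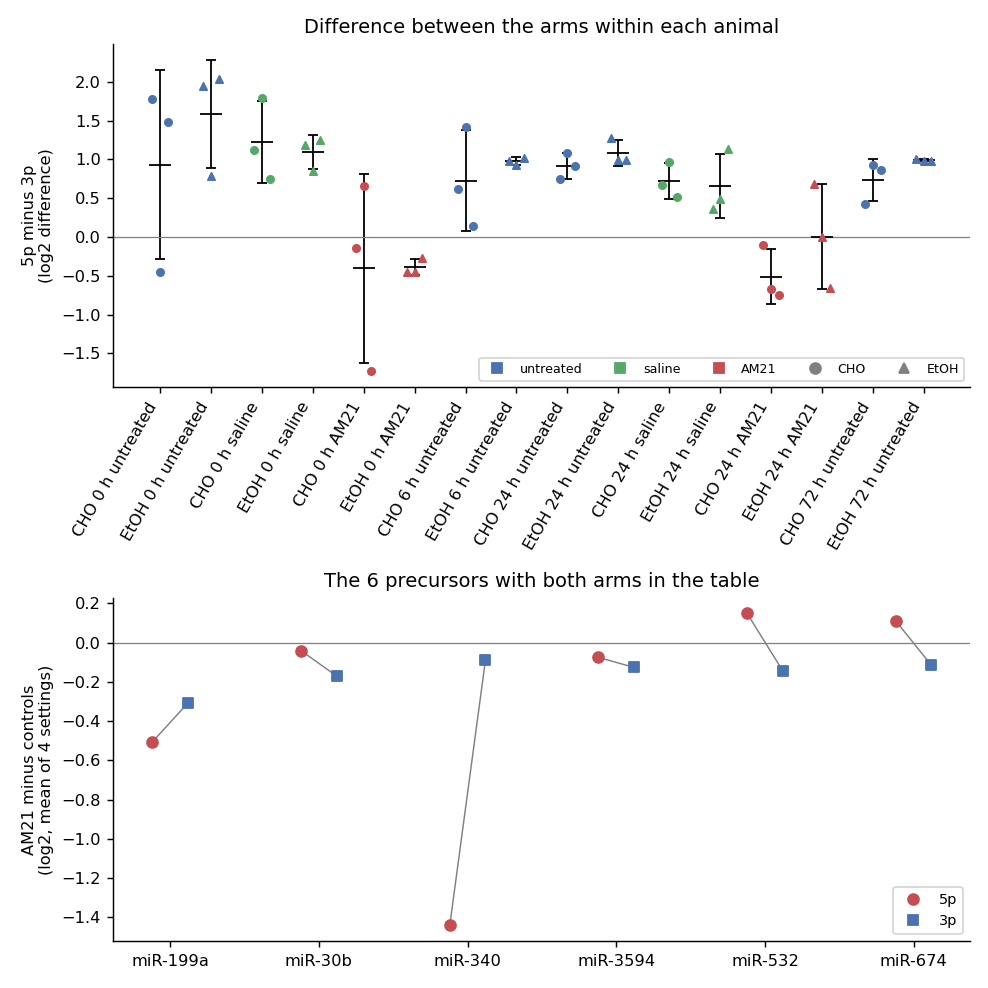
Top, log2 difference of miR-340-5p minus miR-340-3p in each animal, with mean ± SD of 3 animals per group. Bottom, mean AM21 minus control difference (log2) of the 5p arm (circles) and 3p arm (squares) of the 6 precursors with both arms in the table, in which miR-340 stands at -1.44 and -0.09 and no other arm lies below -0.51.

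Levels of other cell types were compared in the same animals. The stellate or mesenchymal miRNAs in the table, miR-199a-5p, miR-199a-3p, miR-145, and miR-143, differed by a median of -0.19 under AM21, and 3 of 4 were lower. Their summed level ran from 13.68 to 14.28 log2 CPM with AM21 and from 13.75 to 14.61 in the controls. The red blood cell miRNAs miR-451 and miR-144 were both lower, by a median of -0.42, with summed levels of 9.55 to 12.54 and 8.67 to 12.36. Leukocyte miRNAs (miR-142-3p, miR-150, and miR-223) differed by a median of 0.06 and hepatocyte miRNAs (miR-122, miR-192, and miR-194) by 0.08. The 1 endothelial miRNA, miR-126, differed by 0.20, with levels of 14.66 to 15.42 log2 CPM with AM21 and 14.15 to 15.50 in the controls. Counts of miR-143 (14 to 85) and miR-223 (18 to 97) lay inside the 14 to 102 of the other-tissue miRNAs. The part of cell makeup in the level of miR-340-5p was not tested.

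The miRNAs that the study tied to miR-21 on these same animals had higher means under AM21, without a test. miR-365 differed by 0.15, let-7a by 0.25, miR-1224 by 0.40, and miR-146a by 0.38, so 4 of 4 were higher, while 69 of all 143 miRNAs were lower. In EtOH-fed animals at 24 h alone miR-365 differed by -0.074. As they were picked on these libraries, their values here are not independent evidence of a direction. For miR-146a the paper also reports a rise with AM21 in a human stellate cell line, measured by quantitative RT-PCR.

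The course after PHx was not used to choose the arms and was tested with limma across all 143 miRNAs, with the Benjamini-Hochberg adjustment over all of them. The miR-340-3p probe rose at 24 h over 0 h and at 72 h over both 0 and 6 h, although its counts were not shown above background and both calls over 0 h were lost under some other settings. miR-340-5p was higher at 72 h than at 6 h, a call also lost under some other settings and without some single animals. Its differences from 0 h did not pass the test, and at 6 h its level was not shown above background. The time contrasts share animals, so their values are given side by side and are not separate evidence.

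At 24 h miR-340-3p was 0.41 higher on the log2 scale than at 0 h (SE 0.10, adjusted p = 0.00119), between 12 and 12 animals, untreated and saline. This is a difference in counts at the level of the other-tissue miRNAs, so no fold change of the molecule is given. The 12 animals at 0 h ran from 7.24 to 8.19 log2 CPM with a median of 7.58, and those at 24 h from 7.71 to 8.38 with a median of 7.96. The ranges overlapped. Of the 143 miRNAs, 37.8% passed the test in this comparison and 21.7% were higher. The difference was 0.30 in untreated animals alone (adjusted p = 0.118) and 0.23 when libraries were scaled by total count alone (adjusted p = 0.0569), so the call was lost in both.

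For miR-340-5p the same comparison gave 0.04 (adjusted p = 0.866), with a 95% interval of -0.32 to 0.40. The animals at 0 h ran from 7.73 to 9.48 log2 CPM with a median of 8.78, and those at 24 h from 8.63 to 9.20 with a median of 8.82. The spread was wider at 0 h, where the 2 libraries of lowest total gave the lowest values of that time.

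Within EtOH-fed animals miR-340-3p was 0.53 higher at 24 h than at 0 h (adjusted p = 0.00625, with 15.4% of all miRNAs called), and within CHO-fed animals the value was 0.29 (adjusted p = 0.107, with 28.7% called). Without the untreated CHO-fed animal 2 at 0 h the value in CHO-fed animals was 0.40, with an adjusted p of 0.0286. The call in EtOH-fed animals was lost with untreated animals only, at 0.36 (adjusted p = 0.347). The diet difference in this change was 0.24 (adjusted p = 0.660) by the interaction term of limma.

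At 72 h the untreated animals were compared with those at 6 h, all of set 4. EtOH-fed animals had 9.22, 8.99, and 9.36 log2 CPM of miR-340-5p at 72 h and 8.13, 8.39, and 8.11 at 6 h. CHO-fed animals had 8.59, 8.72, and 8.58 at 72 h and 8.29, 8.74, and 7.97 at 6 h. The ranges were apart in EtOH-fed animals and overlapped in CHO-fed animals, where 1 animal at 6 h lay above all 3 at 72 h.

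miR-340-3p ran in the same direction. EtOH-fed animals had 8.22, 8.0, and 8.38 log2 CPM of it at 72 h and 7.14, 7.46, and 7.09 at 6 h. CHO-fed animals had 8.16, 7.79, and 7.72 at 72 h and 7.66, 7.32, and 7.83 at 6 h. Again the ranges were apart in EtOH-fed animals only. Among all miRNAs 25.9% lay wholly higher at 72 h than at 6 h in EtOH-fed animals.

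Over both diets the 72 h minus 6 h difference was 0.64 for miR-340-5p (SE 0.25, adjusted p = 0.0335) and 0.63 for miR-340-3p (SE 0.14, adjusted p = 2.14e-04), in a comparison in which 45.5% of the 143 miRNAs were called. In EtOH-fed animals alone the differences were 0.98 (adjusted p = 0.0265) and 0.97 (adjusted p = 1.69e-04), with 35.7% called. In CHO-fed animals they were 0.30 (adjusted p = 0.601) and 0.28 (adjusted p = 0.290), with 28.7% called. The diet difference in the change did not pass the test, at 0.68 for miR-340-5p (adjusted p = 0.868) and 0.69 for miR-340-3p (adjusted p = 0.529). Libraries at 6 h had totals of 87009 to 196972 and those at 72 h of 163533 to 267582. The counts of miR-340-5p were 28 to 48 at 6 h, not shown above background, and 73 to 129 at 72 h. With a covariate for log10 total count the difference in miR-340-5p was 0.51 (adjusted p = 0.223), and its call was also lost when any of 7 of the 12 animals was left out.

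Against 0 h, the level of the miR-340-3p probe in untreated animals at 72 h was 0.45 higher on the log2 scale (SE 0.14, adjusted p = 0.0107). That of miR-340-5p was 0.05 higher (adjusted p = 0.893), with 36.4% of all miRNAs called. Time and set cannot be told apart in this comparison, nor in that of 6 h with 0 h. The call of miR-340-3p was lost when libraries were scaled by total count alone, at 0.21 (adjusted p = 0.225), and with a pseudocount of 5, at 0.31 (adjusted p = 0.0547). In EtOH-fed animals alone miR-340-3p was 0.73 higher (adjusted p = 0.00512, with 17.5% called). Its levels at 0 h were 7.41, 7.56, and 7.44 log2 CPM, all below the 3 at 72 h. Wholly higher levels at 72 h were found for 22.4% of all miRNAs. In CHO-fed animals the difference was 0.16 (adjusted p = 0.570, with 16.8% called), and the diet difference was 0.57 (adjusted p = 0.583).

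At 6 h miR-340-5p was 0.59 lower than at 0 h, a difference of -0.59 (SE 0.25) that missed the threshold (adjusted p = 0.0636), and miR-340-3p differed by -0.18 (adjusted p = 0.272). The 6 h counts of miR-340-5p, 28 to 48, were not shown above background. Of all miRNAs, 28.7% were called. In EtOH-fed animals the difference in miR-340-5p was -0.85 (adjusted p = 0.0963), with 14.7% called, and in CHO-fed animals -0.33 (adjusted p = 0.534), with 2.80% called. Single animals decided the test. Without the untreated CHO-fed animal 2 at 0 h the difference was -0.82 (adjusted p = 0.00673), without the untreated EtOH-fed animal 2 at 0 h it was -0.77 (adjusted p = 0.0157), and without both it was -1.0 (adjusted p = 7.39e-04). Without CHO-fed animal 4_2 at 6 h it was -0.69 (adjusted p = 0.0489). In EtOH-fed animals alone it was -1.20 (adjusted p = 0.0151) without the untreated animal 2 at 0 h.

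**Figure D4:**
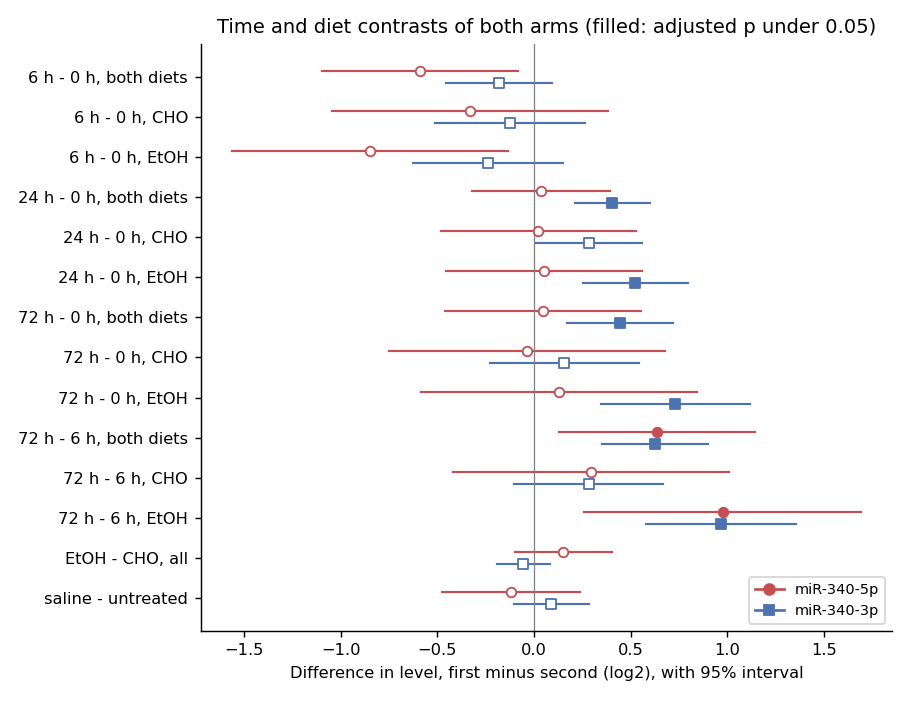
Differences in level (log2, first minus second group) of miR-340-5p (circles) and miR-340-3p (squares) with 95% intervals from limma, filled where the adjusted p was under 0.05. miR-340-3p is filled for 24 h and 72 h over 0 h and for 72 h over 6 h, over both diets and in EtOH-fed animals, and miR-340-5p only for 72 h over 6 h, again over both diets and in EtOH-fed animals.

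The miRNAs of other tissues, a list chosen after the names were seen, also differed over the same times. Their median difference was -0.01 at 24 h over 0 h, -0.33 at 72 h over 0 h, and -0.26 at 72 h over 6 h, against 0.06, 0.03, and 0.02 for all 143 miRNAs. The 6 ranged from -0.65 to 0.18, from -0.45 to 0.07, and from -0.69 to 0.16 in these comparisons. The values of miR-340-3p were 0.41, 0.45, and 0.63. Of the 6, 1 was called lower at 24 h over 0 h, 0 at 72 h over 0 h, and 3 at 72 h over 6 h. The shares of all miRNAs called lower were 16.1%, 16.8%, and 21%. No miRNA of the list was called higher. Probes at this count level thus gave called changes of like size in the other direction.

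miRNAs of other cell types also differed between these times. At 72 h over 6 h, miR-126 of endothelium was higher by 0.83 on the log2 scale, the hepatocyte miRNA miR-192 by 0.87, and the leukocyte miRNA miR-142-3p by 0.85, while miR-145 of mesenchymal cells differed by -1.26 and miR-451 of red blood cells by -1.01, and all 5 passed the test. Of the whole lists, 1 of 3 hepatocyte, 1 of 3 leukocyte, 2 of 4 stellate or mesenchymal and the 1 endothelial miRNA rose in that comparison. In turn 1 leukocyte, 1 mesenchymal and 1 of 2 red blood cell miRNAs fell. Among all 143 miRNAs, 24.5% were called higher and 21% lower at 72 h over 6 h. At 72 h over 0 h, both red blood cell miRNAs fell, miR-451 by 1.31 and miR-144 by 1.16, with 16.8% of all miRNAs called lower. The summed level of this pair in untreated animals ran from 9.93 to 11.14 log2 CPM at 6 h and from 9.10 to 10.89 at 72 h, and that of miR-126 from 13.68 to 14.39 and from 14.64 to 15.17. At 24 h over 0 h, miR-122 and miR-223 rose, and miR-150, miR-145, and miR-199a-3p fell. The counts of miR-223, 18 to 97, lay inside the range of the other-tissue miRNAs. Of all miRNAs, 21.7% were called higher and 16.1% lower there. The part of cell makeup in the time course of either arm was not tested.

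Diet and injection gave no call for either arm. Averaged over all 8 combinations of time and treatment, AM21 included, EtOH-fed minus CHO-fed animals differed by 0.15 in miR-340-5p (95% interval -0.10 to 0.41, adjusted p = 0.384) and by -0.05 in miR-340-3p (95% interval -0.19 to 0.08, adjusted p = 0.537), while 30.1% of the miRNAs were called. Saline minus untreated animals differed by -0.12 (95% interval -0.48 to 0.24) in miR-340-5p and 0.09 (95% interval -0.10 to 0.28) in miR-340-3p, both with an adjusted p of 0.970, and 0.699% of the miRNAs were called. The miRNA called was miR-21 itself, at -1.10 (adjusted p = 0.0150). EtOH-fed saline animals at 0 h had a miR-21 level of 11.62 ± 2.27 log2 CPM (SD, n = 3), with 448, 120, and 3469 counts.

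The arm difference was then compared by two-sided permutation of the animals within diet, time and treatment, in 6 comparisons adjusted together. Its mean was 0.84 ± 0.29 (SD, n = 12) 24 h after PHx. Before PHx it was 1.21 ± 0.69 (SD, n = 12), so the difference was -0.37 (permutation p = 0.107, adjusted p = 0.455). Among untreated animals the 6 h mean was 0.85 ± 0.43 (SD, n = 6). The 72 h mean was 0.87 ± 0.22 (SD, n = 6) and the mean before PHx 1.26 ± 0.95 (SD, n = 6). The differences were -0.41 for 6 h over 0 h (exact permutation p = 0.345), -0.40 for 72 h over 0 h (exact permutation p = 0.355), and 0.01 for 72 h over 6 h (exact permutation p = 0.960), where 0.005 was the smallest p possible.

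EtOH-fed and CHO-fed animals differed by 0.21 in the arm difference (permutation p = 0.189) and saline and untreated animals by -0.21 (permutation p = 0.379). All 6 comparisons had adjusted p-values of 0.455 or 0.960. Without the untreated CHO-fed animal 2 at 0 h, whose arm difference was -0.45, the difference of 24 h over 0 h was -0.54 and its adjusted p 0.0141. The arm subtracted in this quantity was not shown above background, so these tests cannot decide whether the arms changed unequally after PHx, with or without that library. Whether the difference of 24 h over 0 h passed the test rested on whether that library was kept.

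The pooled SD within groups was 0.46 for miR-340-5p, against 0.22 from counting error alone at these counts. For miR-340-3p it was 0.23, against 0.26 from counting error. The spread of miR-340-5p was uneven, with SDs of 1.18 in CHO-fed AM21 animals, 0.88 in CHO-fed untreated animals and 0.62 in EtOH-fed untreated animals at 0 h, against 0.03 and 0.02 in CHO-fed saline and untreated animals at 24 h and 0.08 in CHO-fed untreated animals at 72 h.

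No correlation between the arms over animals passed the test. The spread of miR-340-3p within groups was no wider than counting error, and this arm was not shown above background. A relation between the arms could thus have been missed. In the 36 animals without AM21 Pearson's r was 0.170 (permutation p = 0.319) and Spearman's rho 0.158 (p = 0.354), and without the 2 animals farthest from the median of miR-340-5p r was 0.326 (p = 0.0588). With group means removed r was -0.394 (permutation p = 0.183). In the 12 AM21-treated animals r was -0.185 (permutation p = 0.549), rho was -0.224 (p = 0.486), and r without the 2 farthest was -0.246 (p = 0.497). The adjusted p over the 6 tests was 0.583. Within sets 1, 2, and 3 of animals without AM21 r was -0.10, -0.48, and -0.19 (n = 8 each), and in set 4, which holds the 6 and 72 h animals, it was 0.71 (n = 12).

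The miRNAs most like each arm were sought by Pearson's r over the 16 group means, which share scaling and hold the AM21 groups. The most like miR-340-5p was miR-21 at 0.93, followed by miR-199a-5p at 0.64, miR-301a at 0.58, miR-106b at 0.55, and miR-361 at 0.53. The least like were miR-146a at -0.63, miR-628 at -0.62, and miR-29a at -0.57. The other arm ranked 25th of 142 at 0.31.

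Without the AM21 groups, over 12 group means, the order changed. miR-21 fell to the 39th place at 0.37, and the miRNAs most like miR-340-5p were miR-203 at 0.87, miR-126 at 0.85, miR-872 at 0.84, miR-301a at 0.83, and miR-3559-5p at 0.82. The other arm was then 22nd at 0.59. The likeness of miR-340-5p to miR-21 thus rested on the AM21 groups, which had chosen this arm.

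miR-340-3p was most like miR-374 at 0.80, miR-3545-3p at 0.74, miR-106b at 0.74, miR-19a at 0.73, and miR-19b at 0.72. The least like were miR-150 at -0.78, miR-145 at -0.77, and miR-125a-5p at -0.72. Without the AM21 groups miR-19b led at 0.87, followed by miR-106b at 0.86, miR-374 at 0.84, miR-19a at 0.81, and miR-101b at 0.79. Thus miR-106b, miR-374, miR-19a, and miR-19b were among the 5 most like miR-340-3p in either case. Among the other 5 precursors the r between arms over the 16 group means ran from -0.45 for miR-30b to 0.83 for miR-3594, with miR-340 at 0.31 in between.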

How the data were processed

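NanoString miRNA values of 48 rat livers were analysed. Per the study's methods, the authors normalized raw counts by TMM in edgeR and converted them with voom in limma, and the deposited table holds log2 CPM of 143 of 420 assayed miRNAs. The filter was not given in the sources used here. Counts were recovered from the voom offset of 0.5, all within 0.001 of a whole number. The deposited log2 CPM were fitted in limma 3.58.1 (R 4.3.3) with 16 group means over all 48 animals and calls were made where the p adjusted over 143 miRNAs by Benjamini-Hochberg in each comparison was under 0.05. Times were compared in untreated animals, with saline animals added for 24 h. Arm differences were tested exactly or with 100000 permutations (Python 3.11.15). Counting error was taken from the recovered counts, which summed to 58168 to 267582 per animal. RNAfold 2.7.2 and matplotlib 3.10.9 were used. Replicates within a group were separate animals per the study, which does not say whether 0 h and 24 h samples came from different animals. Named miRNAs were both arms, miR-21, for each arm the 5 most and 3 least alike over group means, miR-365, let-7a, miR-1224, miR-146a, and the other precursors with both arms listed, with lists of cell markers. miR-203, miR-126, miR-872, miR-3559-5p, and miR-101b were added after values were seen. The members and lists were chosen with earlier results of these data known. Steps were tested on simulated data. Alternatives were 3 scalings, a count filter, a pseudocount of 5, voom weights, a replicate block, a depth covariate, fewer groups, other controls, and each animal left out.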

Additional observations from a re-analysis of the deposited data

How the results depend on the processing

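The lower miR-340-5p under AM21 kept its sign under all alternatives, at -1.92 within set number 3, -1.15 within set number 2, and -1.57 to -1.28 with each animal left out. miR-340-3p stayed between -0.22 and 0.06. The rise of miR-340-3p at 72 h over 6 h was called under all alternatives, at 0.44 to 0.71 (adjusted p up to 0.00463). Scaling by total count alone, under which the median of all miRNAs was -0.12 at 24 h and -0.20 at 72 h over 0 h, gave miR-340-3p 0.23 at 24 h and 0.21 at 72 h over 0 h and miR-340-5p 0.53 at 72 h over 6 h, none of them called. It also turned 24 h over 0 h of miR-340-5p to -0.14 (-0.27 in CHO-fed, -0.0010 in EtOH-fed animals), 72 h over 0 h to -0.18 (-0.030 in EtOH-fed animals), and miR-340-3p in CHO-fed animals to -0.010 at 24 h and -0.15 at 72 h over 0 h. The same contrasts of miR-340-5p, near 0 and not called, turned with the 100 highest probes to -0.0088 and -0.0093 (-0.055 at 24 h in CHO-fed animals), with voom weights to -0.0024 and -0.031 (-0.029), and with log10 total count to -0.0028 and -0.077 (-0.046). With a pseudocount of 5 those at 72 h and, in CHO-fed animals, at 24 h turned to -0.032 and -0.021, and with untreated animals only 24 h over 0 h in EtOH-fed animals turned to -0.15. The call of miR-340-5p at 72 h over 6 h was lost with the 100 highest probes (0.51) and with log10 total count (0.51), that of miR-340-3p at 72 h over 0 h with a pseudocount of 5 (0.31), and that at 24 h with untreated animals only (0.30). miR-340-5p at 6 h over 0 h was called with a pseudocount of 5 (-0.56) and with voom weights (-0.68). Without the 2 untreated 0 h animals of lowest total, an alternative chosen after seeing the data, it was called at -1.0, and 24 h and 72 h over 0 h turned to -0.17 and -0.36. The cause of these changes was not tested. With the set number as a replicate block no call of either arm changed, and miR-340-3p at 24 h over 0 h gave 0.41 (adjusted p = 0.00143). The block was used only as an alternative, since same-numbered animals had correlations over 0.1 in all 3 pairs in 4 of 14 pairs of groups.

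With each animal left out in turn, the 6 h value of miR-340-5p over 0 h ranged from -0.82 to -0.39, its 24 h value from -0.078 to 0.14, and its 72 h value from -0.19 to 0.25. At 72 h over 6 h it ranged from 0.55 to 0.74, and the call was lost without CHO-fed animal 4_1, 4_3 or 4_8 or EtOH-fed animal 4_4, 4_6, 4_10 or 4_12, and without any of these 4 EtOH-fed animals also within that diet. Within the CHO diet miR-340-5p ranged over 0 h from -0.80 to 0.076 (6 h), -0.21 to 0.23 (24 h), and -0.50 to 0.37 (72 h), and miR-340-3p from -0.34 to 0.10 (6 h) and -0.055 to 0.39 (72 h). Within the EtOH diet miR-340-5p ranged from -0.13 to 0.16 (24 h) and -0.23 to 0.34 (72 h). The calls of miR-340-3p over both diets held in each case, at 0.35 to 0.46 for 24 h and 0.34 to 0.56 for 72 h over 0 h. The arm difference ranged from -0.54 to -0.26 for 24 h over 0 h and from -0.14 to 0.18 for 72 h over 6 h. Groups cut to 2 animals were assumed to vary like the others. Over all alternatives the number of miRNAs called ran from 27 to 62 (54 as reported) for 24 h over 0 h, 17 to 64 (41) for 6 h over 0 h, 43 to 76 (65) for 72 h over 6 h, and 20 to 50 (43) for diet. Counts of 12 to 145 for miR-340-5p and 15 to 64 for miR-340-3p limit what these libraries can show.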
